A study of Mus musculus with 12 samples.

Results

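The collagen chain genes are the genes whose symbol in the count files has the form Col, a type number, the letter a and a chain number. There were 44 such genes among the 20661 genes counted. By the assembly that their chains form, 11 are fibrillar, 9 belong to sheet-like networks, 9 are FACITs (fibril-associated collagens with interrupted triple helices), 1 makes anchoring fibrils, and the 14 others comprise 6 beaded-filament, 4 transmembrane, 2 multiplexin and 2 unclassed chains. Their RNA, their ribosome footprints and their translational efficiency (TE, footprints relative to RNA) were compared in mouse embryonic fibroblasts (MEFs) with and without perturbation of the tumour suppressor ARF.

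Primary MEFs at passage 4 were infected with lentivirus and selected with puromycin. The WT-shSCR group was wild type and carried a scrambled hairpin. The WT-shARF group was wild type and is labelled as carrying a hairpin against Arf, and both wild-type groups are labelled C57BL/6J, whereas the study's methods name the strain of the wild-type MEFs as B6129SF2/J. The ArfKO-shSCR group carried the scrambled hairpin and came from the strain B6.129X1-Cdkn2atm1Cjs/KaiJ, in which exon 1β of Cdkn2a is replaced by a neo cassette, so strain and genotype cannot be told apart under either name. Each group gave 2 RNA libraries and 2 footprint libraries, 12 in all. Nothing in the labels says that replicates were separate embryos, so the p-values measure only the spread between these libraries.

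Collagens are the structural proteins of connective tissue, and fibroblasts are their main makers. Each chain carries stretches of the repeat Gly-X-Y, which puts a glycine at regular steps, and chains wind into triple helices inside the endoplasmic reticulum before they are secreted, trimmed and cross-linked. Fibrillar types I, III and V build the fibrils of skin, tendon and vessel walls, type IV builds basement membranes, type VI forms beaded filaments around cells, type VII anchors epithelium to the dermis, and FACITs decorate the fibril surface. Type I is made from a pair of α1 chains and a single α2 chain, and type VI from α1, α2 and α3 chains together.

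The repeat that defines the family is visible in the coding sequence. The following sequences are from GENCODE M21 transcripts on GRCm38, written 5′ to 3′, with the glycine codon of each Gly-X-Y unit in capitals. The fibrillar examples are each the first coding exon of 54 bases that opens with a glycine codon, a length that recurs through the fibrillar genes. They lie at chr11:94939904-94939957 on the plus strand, chr6:4515481-4515534 on the plus strand, chr1:45325360-45325413 on the plus strand and chr1:45434892-45434945 on the minus strand.
Col1a1: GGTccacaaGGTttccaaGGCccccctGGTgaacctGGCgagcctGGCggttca
Col1a2: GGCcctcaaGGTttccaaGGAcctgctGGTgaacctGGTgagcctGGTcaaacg
Col3a1: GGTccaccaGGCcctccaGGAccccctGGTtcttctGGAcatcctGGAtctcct
Col5a2: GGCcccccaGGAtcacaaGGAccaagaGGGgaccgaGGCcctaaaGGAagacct
The next sequences open the longest uninterrupted Gly-X-Y run of 4 chains from other classes, shown because each was called in ArfKO-shSCR footprints. They begin and end at chr1:90791960-90792445, minus strand, chr8:11247060-11267614, minus strand, chr9:108978632-108978838, plus strand, and chr15:55471708-55472971, plus strand, and each crosses at least 1 intron.
Col6a3: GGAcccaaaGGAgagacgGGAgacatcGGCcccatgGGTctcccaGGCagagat
Col4a1: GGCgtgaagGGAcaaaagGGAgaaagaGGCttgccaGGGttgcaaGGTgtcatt
Col7a1: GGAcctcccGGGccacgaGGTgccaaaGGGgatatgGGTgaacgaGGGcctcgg
Col14a1: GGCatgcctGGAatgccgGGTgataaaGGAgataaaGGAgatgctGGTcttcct
The longest run held 216 to 344 Gly-X-Y units in the fibrillar chains and 39 to 66 in the network chains, and it was 75 in Col7a1 and 45 in Col6a3. The fibrillar genes had 21 to 33 coding exons of 54 bases opening with a glycine codon, the network genes 0 to 3, and no gene outside the family had more than 1. Glycine codons were a median of 24.2% of all codons in the collagens and 6.06% in the 19697 other genes. Guanine was a median of 31.5% of collagen coding bases against 26.2% in the other genes, which bears on the levels because the footprints were cut by RNase T1, an enzyme that cleaves after guanine, whereas the RNA was fragmented by alkali. The part of this in differences of TE between genes was not tested.

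Reads assigned to genes numbered 1578627 to 3989908 in the RNA libraries and 2544319 to 5157572 in the footprint libraries. Cdkn2a, the targeted gene, did not follow the hairpin label. Its RNA counts were 119 and 65 in WT-shSCR, 1201 and 2852 in the libraries labelled WT-shARF, and 76 and 75 in ArfKO-shSCR, and its footprints were 285 and 168, 1478 and 3575, and 206 and 178 respectively. The log2 fold change of Cdkn2a in the libraries labelled WT-shARF was 3.91 ± 0.16 (SE) in RNA (edgeR adjusted p = 5.57e-18) and 2.99 ± 0.14 in footprints (adjusted p = 3.49e-17), so the targeted gene went against the label of a knockdown. These counts pool Arf with Ink4a, which shares the gene's later exons, so no loss of ARF could be read from them. The paper presents an immunoblot for knockdown of ARF by the hairpin, a measure of protein rather than of pooled RNA. Whether the label of these libraries is right was not tested, and every direction given for the libraries labelled WT-shARF carries that limit. Of the fibroblast markers, all 9 were detected in each group, and their summed RNA level lay between 6783 and 8287 CPM (reads of a gene relative to the library total, scaled by TMM over the libraries of an assay). Vim and Fbln2 made up most of that sum, at 5348 and 2627.6 CPM in WT-shSCR replicate 1. In ArfKO-shSCR RNA, Pdgfra, Fbln1 and Prrx1 of the 9 tested were called higher than in WT-shSCR and Fbln2 lower, against 3.94% and 3.99% of all genes. Pdgfra, with 10 and 4 RNA reads in WT-shSCR, passed the read filter only through ArfKO-shSCR, where it is high. In WT-shARF RNA, Fbln2 alone of 8 tested was called, and it was lower, against 4.17% of all genes. The summed RNA of 12 macrophage markers was 664 to 673 CPM in WT-shSCR, 239 to 323 in WT-shARF and 43.9 to 76 in ArfKO-shSCR. Of the 12, 10 were called lower in ArfKO-shSCR and 6 in WT-shARF, against 3.99% and 4.17% of all genes. Of the 10, Tyrobp, Fcgr1, Fcer1g, C1qa, C1qb and Cd14 passed the read filter only through WT-shSCR, where they are high. The same held for Cd68 of the 6, so those calls are a description. The summed RNA of 10 mesothelial and epithelial markers was 100 to 102 CPM in WT-shSCR, 65.8 to 78.5 in WT-shARF and 175 to 193 in ArfKO-shSCR. Krt19 made up most of the WT-shSCR sum, at 76.1 and 74 CPM. Of 8 tested, 4 were called higher in ArfKO-shSCR RNA (Krt8, Lrrn4, Upk3b and Msln), against 3.94% of all genes. These had at most 4 reads in a WT-shSCR RNA library and passed the read filter only through ArfKO-shSCR, where they are high. The 7 smooth muscle type markers summed to 16340 to 16425, 10320 to 11875 and 15540 to 15560 CPM, while 7 endothelial and 9 cartilage and bone markers stayed at or below 41.6 CPM in every RNA library. The part of these other cells in the collagen differences was not tested, and in bulk libraries fewer cells of a type and less RNA per cell cannot be told apart.

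Collagens took 1.66% to 2.65% of the RNA reads and 3.31% to 4.87% of the footprints. In RNA the share was 1.92% and 2.06% in WT-shSCR, 2.29% and 2.65% in WT-shARF, and 1.85% and 1.66% in ArfKO-shSCR. In footprints it was 4.28% and 4.00% in WT-shSCR, 4.83% and 4.87% in WT-shARF, and 3.33% and 3.31% in ArfKO-shSCR. In both assays the WT-shARF libraries were highest and the ArfKO-shSCR libraries lowest, with no overlap between groups. The widest 95% Wilson interval, from 4.80% to 4.85%, belonged to a WT-shARF footprint library, and it was narrower than the distance between any of the groups. These intervals cover counting error only, and with 2 libraries a group an exact permutation test cannot go below p = 0.33. Col1a1 alone took 0.33% to 0.549% of RNA reads and 1.24% to 2.12% of footprints, and the 2 type I chains made up 39.2% to 44.2% of collagen RNA reads but 55.4% to 61.8% of collagen footprints.

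Levels can be compared between genes only per coding length, and on that scale type I led, followed by types V and IV. In WT-shSCR RNA the mean was 1110 ± 40.1 CPM per kb of coding sequence (SD, n = 2) for Col1a2, 866 ± 83.4 for Col1a1, 597 ± 27.6 for Col5a2, 433 ± 17.1 for Col4a1, 369 ± 21.8 for Col5a1 and 277 ± 4.37 for Col4a2. Col3a1 at 156 ± 3.55 and Col12a1 at 151 ± 11 did not differ beyond their spread, and Col8a1 at 102 ± 7.61 and Col6a1 at 56.6 ± 4.99 completed the first 10. In footprints the order of the first pair was turned, with Col1a1 at 3450 ± 213 and Col1a2 at 2010 ± 95.1 CPM per kb. The plot of levels by library shows how closely replicates agreed for the abundant chains.

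**Figure D1:**
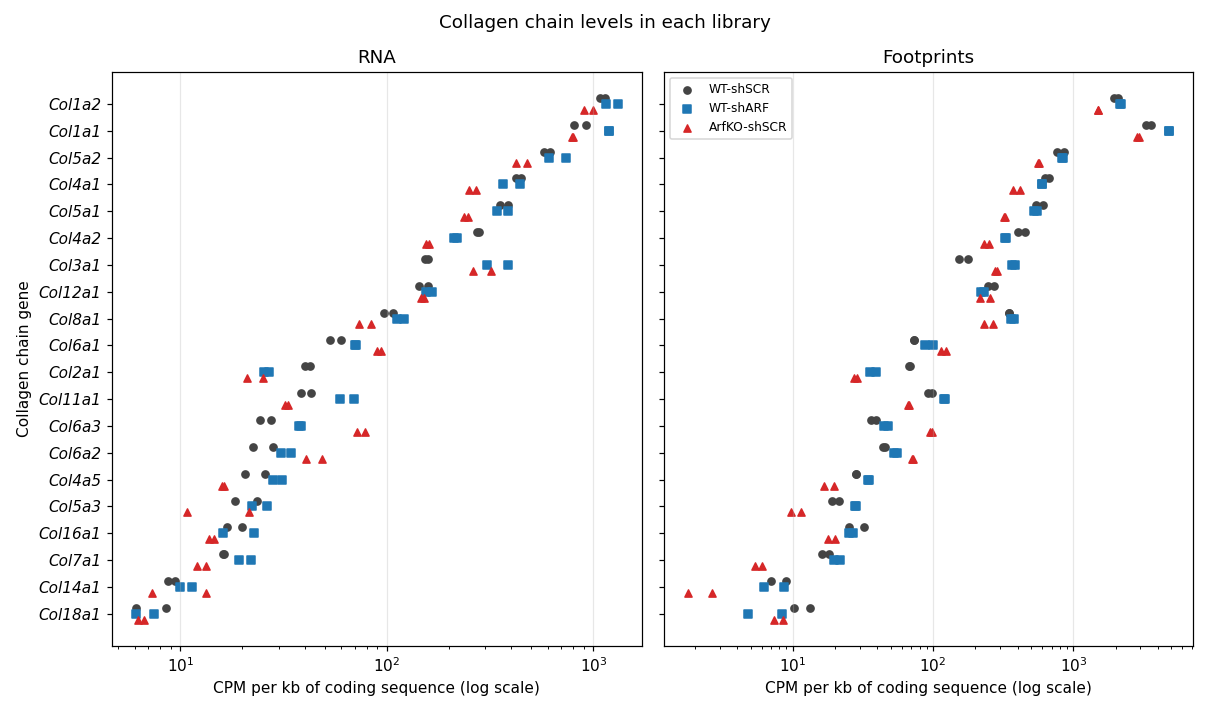
Levels of the 20 collagen chains with at least 30 reads in every library, as CPM per kb of coding sequence on a log axis, for RNA (left) and footprints (right); each point is 1 library, and the 3 groups have their own colour and symbol. Genes are ordered by WT-shSCR RNA, in which Col1a2 stands at 1110 and Col1a1 at 866, while in footprints Col1a1 stands at 3450 and Col1a2 at 2010.

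Of the 44 members, 7 had too few reads for any test (Col6a6, Col9a1, Col9a3, Col17a1, Col20a1, Col25a1 and Col26a1), 36 were tested in RNA or footprints, and Col4a3 only in TE. Each of the 7 had at most 13 reads in an RNA library and at most 12 in a footprint library, so their differences were not detectable at this depth. No member was without reads. Short words of the coding sequence were seldom shared with other genes. Of the 20-base words in a member's whole coding sequence, a median of 0.441% also occurred in a transcript of another gene. The highest shares were 6.23% in Col6a6 and 5.38% in Col6a5, while Col3a1 had 1.94%. Only exact matches to transcripts were counted, and the repeat was not measured apart from the rest.

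Partner chains of a single collagen type were then compared as ratios of reads per coding length. For type I the RNA ratio of Col1a1 to Col1a2 was 0.746 and 0.812 in WT-shSCR, 1.04 and 0.907 in WT-shARF and 0.804 and 0.879 in ArfKO-shSCR. The footprint ratio was 1.74 and 1.7 in WT-shSCR, 2.2 and 2.25 in WT-shARF and 1.97 and 1.89 in ArfKO-shSCR. All 6 footprint libraries were thus higher than all 6 RNA libraries, and among footprints the 3 groups did not overlap, WT-shARF being highest. For type IV, Col4a1 to Col4a2 was 1.63 and 1.5 in WT-shSCR, 1.71 and 2.01 in WT-shARF and 1.67 and 1.6 in ArfKO-shSCR in RNA, and 1.49 and 1.55 in WT-shSCR, 1.83 and 1.83 in WT-shARF and 1.61 and 1.65 in ArfKO-shSCR in footprints, highest in WT-shARF without overlap in both assays. For type V, Col5a1 to Col5a2 was below 1 in every library, from 0.519 to 0.667 in RNA and from 0.563 to 0.707 in footprints, where ArfKO-shSCR was lowest.

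In type VI the share of the α3 chain differed between groups. Col6a3 to Col6a1 in RNA was 0.459 and 0.458 in WT-shSCR, 0.536 and 0.546 in WT-shARF and 0.831 and 0.798 in ArfKO-shSCR. In footprints it was 0.531 and 0.494 in WT-shSCR, 0.483 and 0.506 in WT-shARF and 0.836 and 0.791 in ArfKO-shSCR. Both assays placed the ArfKO-shSCR libraries above all others, whereas Col6a1 to Col6a2 overlapped between groups, at 1.84 to 2.36 in RNA and 1.62 to 1.80 in footprints. The ratios Col8a1 to Col8a2 and Col11a1 to Col11a2 were not formed because Col8a2 and Col11a2 fell to 4 and 5 reads in a library.

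**Figure D2:**
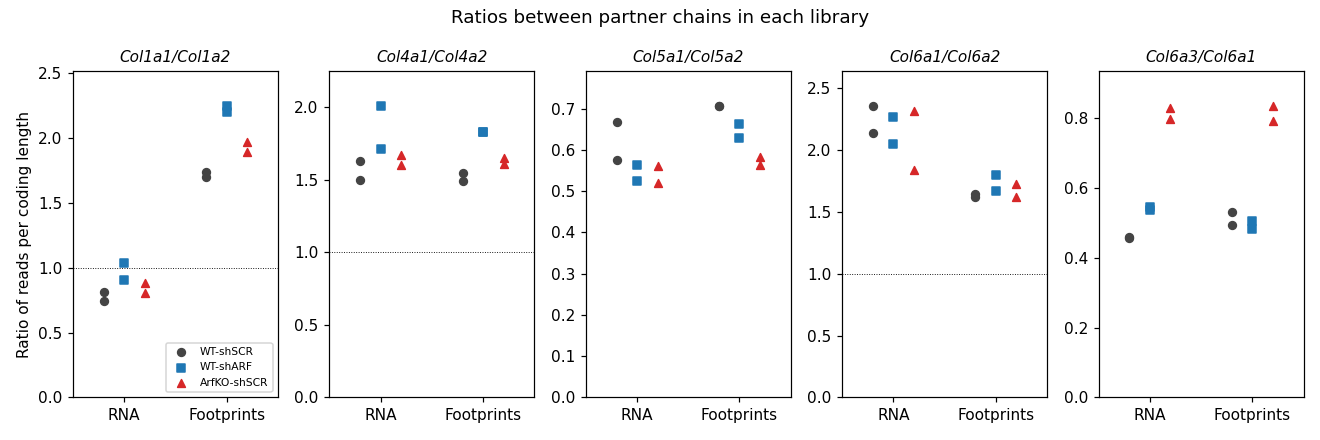
Ratio of reads per coding length between partner chains in each of the 12 libraries, for RNA and footprints; each point is 1 library, each panel has its own linear axis from 0, and the dotted line marks equal reads. Col1a1/Col1a2 lies between 0.746 and 1.04 in RNA and between 1.70 and 2.25 in footprints, and Col6a3/Col6a1 lies above the other groups in ArfKO-shSCR in both assays.

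TE was expressed on the log2 scale relative to the median of 5507 genes with at least 30 reads in every library, which 20 members met. Their median was 0.68 in WT-shSCR, 0.48 in WT-shARF and 0.41 in ArfKO-shSCR, and 18, 18 and 16 of the 20 were above the median gene. Col1a1 was highest in each group, at 2.18 and 1.88 in the 2 pairs of WT-shSCR libraries, 2.02 and 2.05 in WT-shARF and 1.92 and 1.83 in ArfKO-shSCR. Its WT-shSCR value exceeded that of 99.3% of genes. Col8a1, a network chain of vessels and of the corneal membrane, followed at 1.89 and 1.74, 1.76 and 1.58 and 1.49 and 1.85. Col1a2 was at 0.97 and 0.82 in WT-shSCR, so the TE of the partner chains of type I lay apart by more than their spread. Col3a1, the type III chain, stood near the median gene at 0.24 and -0.01, 0.27 and -0.01 and -0.13 and 0.06.

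**Figure D3:**
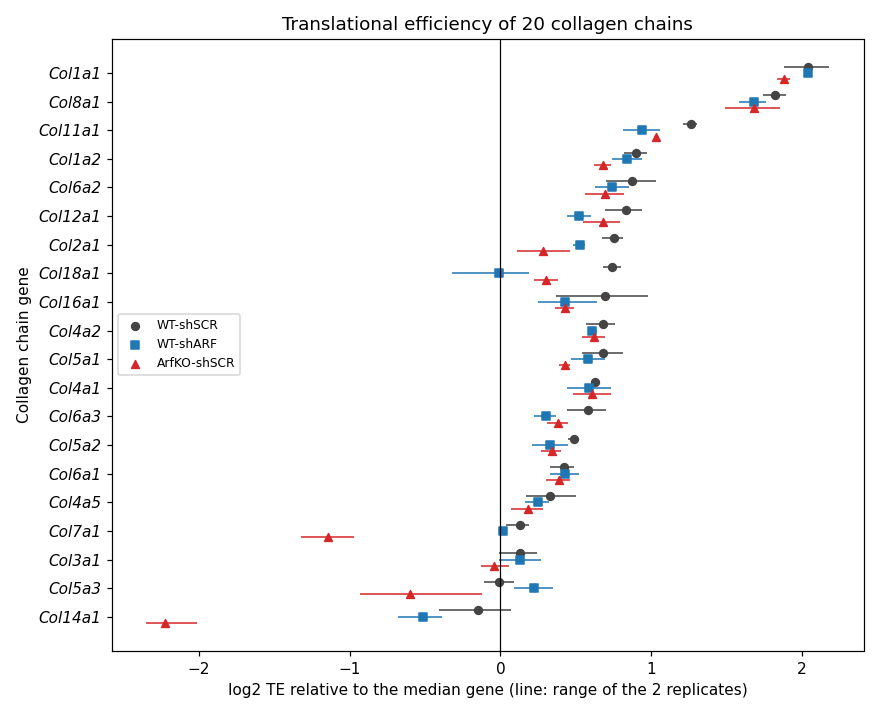
Log2 TE of 20 collagen chains relative to the median gene (vertical line at 0), ordered by WT-shSCR; points are group values from the means of 2 libraries per assay and lines span the 2 replicate values. Col1a1 and Col8a1 are highest in all 3 groups, and in ArfKO-shSCR Col14a1 at -2.22 and Col7a1 at -1.14 are lowest.

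Some chains had RNA but few footprints. Over all libraries the genes together gave 1.53 footprints per RNA read, whereas Col6a4 gave 16 footprints against 419 RNA reads and Col4a4 gave 40 against 517. At the other end stood Col1a1 with 5.80 footprints per RNA read and Col24a1, a minor fibrillar chain, with 711 footprints against 124 RNA reads.

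The first comparison asked how ArfKO-shSCR differed from WT-shSCR. The type VI chains Col6a1, Col6a2 and Col6a3, the fibrillar chain Col3a1 and the network chain Col8a2 rose in both assays. Col8a2 did so from 5 and 4 RNA reads in WT-shSCR. In footprints, 3 type IV chains (Col4a1, Col4a2 and Col4a5), the type V chains and 4 other fibrillar chains (Col1a1, Col1a2, Col2a1 and Col11a1) fell. In RNA, 5 of the 33 members tested were higher and 4 were lower (edgeR quasi-likelihood test, Benjamini-Hochberg adjusted p under 0.05 over all genes), against 3.94% higher and 3.99% lower among all 10659 genes. In footprints, 5 of 30 members were higher and 16 were lower, against 9.57% and 8.95% of 10737 genes. The median log2 fold change of the members tested was -0.20 in RNA and -0.51 in footprints, and that of all genes was -0.004 and -0.001. All 5 members called higher were the same in both assays. All 4 called lower in RNA were also lower in footprints, and 15 of the 16 called lower in footprints had an RNA log2 fold change below 0. How often the assays agree in this way among all genes was not counted, so the agreement is a description. Leaving out WT-shSCR footprint replicate 1 or 2 left 0 members and 0 genes in all called by edgeR, while 20 and 21 of the 21 still had an unadjusted p under 0.05. The 21 members called with all libraries kept their direction in both refits, with adjusted p from 0.0822 to 0.345 without replicate 1 and from 0.0724 to 0.218 without replicate 2, and the spread then rests on the ArfKO-shSCR pair. In RNA all 9 calls kept their direction under the same omissions, while fewer passed the threshold, among members and over all genes alike.

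Among the fibrillar chains, 1 rose and 7 fell of the 10 tested in footprints. Col3a1, the chain of type III collagen in distensible tissues, had RNA levels of 672.1 and 694.1 CPM in WT-shSCR, 1342.3 and 1695.6 in WT-shARF and 1403.8 and 1145.7 in ArfKO-shSCR. Its footprints were 778.1 and 667.8 CPM in WT-shSCR, 1603 and 1669.6 in WT-shARF and 1259.6 and 1210.1 in ArfKO-shSCR. WT-shSCR was lowest in both assays without overlap. Against WT-shSCR, the ArfKO-shSCR log2 fold change was 0.90 ± 0.15 (SE), adjusted p = 0.000677, in RNA, and 0.78 ± 0.08 (SE), adjusted p = 8.09e-09, in footprints. Col5a2 lies 24.6 kb from Col3a1 on the opposite strand of chromosome 1 and moved the other way. Its RNA was 2766.6 and 2591.5 CPM in WT-shSCR, 2729.9 and 3294.1 in WT-shARF and 2131.3 and 1891.4 in ArfKO-shSCR, and its footprints were 3857.7 and 3437.9 CPM in WT-shSCR, 3700.5 and 3769.8 in WT-shARF and 2535.1 and 2527.2 in ArfKO-shSCR, lowest in ArfKO-shSCR in both assays. The footprint log2 fold change was -0.51 ± 0.06 (SE), adjusted p = 1.94e-07, while the RNA value of -0.42 ± 0.14 (SE), adjusted p = 0.0807, missed the threshold.

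Col5a1, the chain that pairs with Col5a2 to set fibril diameter, had RNA of 1982.1 and 2154.9 CPM in WT-shSCR, 1920.4 and 2152.7 in WT-shARF and 1380.0 and 1322.7 in ArfKO-shSCR and footprints of 3402.3 and 3030.1 CPM in WT-shSCR, 3064.3 and 2955.7 in WT-shARF and 1780.4 and 1834.6 in ArfKO-shSCR. ArfKO-shSCR was lowest in each assay, with log2 fold changes of -0.62 ± 0.14 (SE), adjusted p = 0.00927, in RNA and -0.82 ± 0.07 (SE), adjusted p = 3.46e-11, in footprints. Col5a3, a rarer type V chain, had RNA of 122.3 and 95.4 CPM in WT-shSCR, 115.9 and 137.6 in WT-shARF and 56 and 112.3 in ArfKO-shSCR, with the ArfKO-shSCR pair far apart. Its footprints were 111.1 and 98.4 CPM in WT-shSCR, 146.8 and 145.2 in WT-shARF and 50.7 and 59.7 in ArfKO-shSCR, and ArfKO-shSCR fell below WT-shSCR, with a log2 fold change of -0.91 ± 0.16 (SE), adjusted p = 5.63e-05.

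Type I changed little in size but with narrow errors. Col1a1 RNA was 3518.5 and 4032.9 CPM in WT-shSCR, 5211.1 and 5163.5 in WT-shARF and 3472.1 and 3440.4 in ArfKO-shSCR, and its footprints were 15715.4 and 14399.8 CPM in WT-shSCR, 20900.7 and 21094.8 in WT-shARF and 12904.3 and 12382.9 in ArfKO-shSCR. WT-shARF was highest and ArfKO-shSCR lowest in both assays without overlap. Col1a2 RNA was 4453.7 and 4687.4 CPM in WT-shSCR, 4716 and 5377.5 in WT-shARF and 4080.3 and 3697 in ArfKO-shSCR and its footprints were 8541.8 and 7988.2 CPM in WT-shSCR, 8985.6 and 8869 in WT-shARF and 6191.3 and 6181.5 in ArfKO-shSCR, so ArfKO-shSCR was lowest in both assays. Against WT-shSCR the ArfKO-shSCR footprint log2 fold change was -0.24 ± 0.05 (SE), adjusted p = 0.000263, for Col1a1 and -0.41 ± 0.05 (SE), adjusted p = 3.54e-07, for Col1a2. The RNA values of -0.13 and -0.23 did not pass the test.

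Col2a1, the main fibrillar chain of cartilage, was also read in these fibroblasts, where cartilage and bone markers were low. Its RNA was 190.1 and 179 CPM in WT-shSCR, 113.8 and 119.7 in WT-shARF and 93.7 and 111.8 in ArfKO-shSCR, highest in WT-shSCR without overlap. Footprints followed, at 298 and 303.1 CPM in WT-shSCR, 157.7 and 174.2 in WT-shARF and 126.7 and 121.9 in ArfKO-shSCR. The ArfKO-shSCR log2 fold change was -0.85 ± 0.17 (SE), adjusted p = 0.00339, in RNA and -1.26 ± 0.11 (SE), adjusted p = 7.3e-10, in footprints. Col11a1, which joins type II in thin fibrils, had RNA of 242.3 and 217.3 CPM in WT-shSCR, 336 and 390.4 in WT-shARF and 188.2 and 181.8 in ArfKO-shSCR and footprints of 550.7 and 516.5 CPM in WT-shSCR, 694.1 and 677 in WT-shARF and 377.4 and 372.2 in ArfKO-shSCR. WT-shARF was highest and ArfKO-shSCR lowest in both assays, and the ArfKO-shSCR footprint log2 fold change was -0.50 ± 0.09 (SE), adjusted p = 0.000117. Col24a1 had RNA of at most 13.9 CPM and footprints of 32.5 and 27.3 CPM in WT-shSCR, 38 and 42.8 in WT-shARF and 26 and 18.8 in ArfKO-shSCR, and it did not pass the test between ArfKO-shSCR and WT-shSCR.

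Of the 7 network chains tested in footprints, 5 fell and 1 rose. Col4a1 and Col4a2, the paired chains of most basement membranes, start head to head on chromosome 8, and their GENCODE gene spans share 22 bases at chr8:11312805-11312826, shown from the RefSeq promoter table (GRCm38.p6, plus strand) because this pair fell together: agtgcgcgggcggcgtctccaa. Col4a1 RNA was 2279.7 and 2155.6 CPM in WT-shSCR, 1867 and 2262 in WT-shARF and 1378.2 and 1272.2 in ArfKO-shSCR, with footprints of 3459.8 and 3193.3 CPM in WT-shSCR, 3078.8 and 3040.9 in WT-shARF and 1899 and 2134.1 in ArfKO-shSCR. Col4a2 RNA was 1401.3 and 1432.9 CPM in WT-shSCR, 1091 and 1125.4 in WT-shARF and 825.6 and 796.7 in ArfKO-shSCR, with footprints of 2327.8 and 2056.8 CPM in WT-shSCR, 1682.6 and 1658.8 in WT-shARF and 1179.2 and 1294 in ArfKO-shSCR. ArfKO-shSCR was lowest for both chains in both assays without overlap. The RNA log2 fold change was -0.74 ± 0.14 (SE), adjusted p = 0.0021, for Col4a1 and -0.81 ± 0.14 (SE), adjusted p = 0.00106, for Col4a2, and in footprints it was -0.71 ± 0.07 (SE), adjusted p = 1.01e-09, and -0.81 ± 0.07 (SE), adjusted p = 4.6e-10.

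Col4a5, a basement membrane chain of kidney and other tissues, had RNA of 130.6 and 104.4 CPM in WT-shSCR, 141.8 and 157.2 in WT-shARF and 82.4 and 81.2 in ArfKO-shSCR and footprints of 143.9 and 142.7 CPM in WT-shSCR, 176.1 and 173.4 in WT-shARF and 85.1 and 99.4 in ArfKO-shSCR, lowest in ArfKO-shSCR. Its footprint log2 fold change was -0.62 ± 0.14 (SE), adjusted p = 0.00129. Col8a1 had RNA of 214.7 and 238.7 CPM in WT-shSCR, 250.2 and 270.0 in WT-shARF and 186.4 and 164.1 in ArfKO-shSCR and footprints of 781.7 and 771.8 CPM in WT-shSCR, 839.5 and 799 in WT-shARF and 515.5 and 598.2 in ArfKO-shSCR, and it fell in footprints (log2 fold change -0.47 ± 0.09 (SE), adjusted p = 0.00013). Its partner Col8a2 went the other way from few reads, with RNA counts of 5 and 4 in WT-shSCR, 10 and 47 in WT-shARF and 52 and 34 in ArfKO-shSCR and footprint counts of 10 and 7 in WT-shSCR, 22 and 67 in WT-shARF and 62 and 51 in ArfKO-shSCR. The ArfKO-shSCR log2 fold change of Col8a2 was 2.93 ± 0.53 (SE), adjusted p = 0.00131, in RNA and 1.85 ± 0.53 (SE), adjusted p = 0.0121, in footprints, with wide errors. In RNA it passed the read filter only through the ArfKO-shSCR libraries, where it is high, so that call is a description. Col10a1, the chain of hypertrophic cartilage, had footprint levels of 29.9 and 23.3 CPM in WT-shSCR, 10.9 and 13.3 in WT-shARF and 14.1 and 13.8 in ArfKO-shSCR from RNA of at most 10.7 CPM in the mean of a group, and its footprint log2 fold change was -0.93 ± 0.30 (SE), adjusted p = 0.0264. Col4a4 was a case in which 1 library decided the value, with RNA counts of 170 and 28 in WT-shSCR, 31 and 100 in WT-shARF and 109 and 79 in ArfKO-shSCR.

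The beaded-filament chains Col6a1, Col6a2 and Col6a3 were all called higher in RNA and in footprints, and they were the 3 of that class tested in footprints. Col6a3, whose long chain lies on chromosome 1 (90765923 to 90843971), had RNA of 240.4 and 271.8 CPM in WT-shSCR, 368.9 and 380.3 in WT-shARF and 768.9 and 704.3 in ArfKO-shSCR. Its footprints were 383.8 and 356 CPM in WT-shSCR, 472 and 436.8 in WT-shARF and 940.0 and 972.3 in ArfKO-shSCR. The 3 groups did not overlap in either assay, and ArfKO-shSCR was 2.88-fold higher than WT-shSCR in RNA (log2 fold change 1.53 ± 0.15 (SE), adjusted p = 3e-06) and 2.61-fold higher in footprints (1.38 ± 0.08 (SE), adjusted p = 7.19e-14). Col6a1 and Col6a2 lie 85.2 kb apart on chromosome 10. Col6a1 RNA was 163.2 and 184.9 CPM in WT-shSCR, 214.6 and 217 in WT-shARF and 288.5 and 275.1 in ArfKO-shSCR, and its footprints were 225.4 and 224.8 CPM in WT-shSCR, 304.5 and 269.2 in WT-shARF and 350.4 and 383.2 in ArfKO-shSCR. Col6a2 RNA was 76.5 and 95.4 CPM in WT-shSCR, 104.6 and 116.6 in WT-shARF and 137.3 and 165 in ArfKO-shSCR, and its footprints were 153.8 and 150.2 CPM in WT-shSCR, 186.6 and 178 in WT-shARF and 239.2 and 245 in ArfKO-shSCR. ArfKO-shSCR was highest for both, with log2 fold changes of 0.70 ± 0.15 (SE), adjusted p = 0.00703, and 0.82 ± 0.19 (SE), adjusted p = 0.00893, in RNA and 0.72 ± 0.10 (SE), adjusted p = 4.12e-06, and 0.68 ± 0.12 (SE), adjusted p = 4.78e-05, in footprints.

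Because these 3 genes moved together, the 250 bases before their RefSeq starts (GRCm38.p6, all on the minus strand) are shown, with matches to the motifs named after them, read on both strands, in capitals. They span chr10:76726045-76726294, chr10:76623631-76623880 and chr1:90843972-90844221. The RefSeq start of Col6a1 lies 124 bases inside its GENCODE gene, so that part of its window is within the gene.
Col6a1: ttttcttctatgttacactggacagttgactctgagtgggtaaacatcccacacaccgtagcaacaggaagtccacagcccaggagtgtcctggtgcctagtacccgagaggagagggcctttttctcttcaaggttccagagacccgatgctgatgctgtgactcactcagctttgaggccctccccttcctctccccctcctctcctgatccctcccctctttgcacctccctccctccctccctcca
Col6a2: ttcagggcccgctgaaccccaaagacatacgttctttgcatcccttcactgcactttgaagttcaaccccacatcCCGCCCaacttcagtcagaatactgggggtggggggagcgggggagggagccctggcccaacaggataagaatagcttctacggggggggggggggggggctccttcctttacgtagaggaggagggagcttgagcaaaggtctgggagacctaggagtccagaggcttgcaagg
Col6a3: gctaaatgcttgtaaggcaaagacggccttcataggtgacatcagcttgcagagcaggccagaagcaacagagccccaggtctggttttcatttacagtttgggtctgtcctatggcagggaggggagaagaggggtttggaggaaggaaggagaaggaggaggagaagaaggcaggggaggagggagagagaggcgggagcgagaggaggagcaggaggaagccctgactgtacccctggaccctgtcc
The Col6a2 window held GGGCGG once, read on the other strand as CCGCCC, and the windows of Col6a1 and Col6a3 held none of the motifs. Of all 32851 promoters of that length in the table, 12.4% held TATAAA, 33.8% held CCAAT and 32.7% held GGGCGG. Of the 35 members with an entry, 5, 12 and 21 held them. A match is a description of letters, and none of these counts was tested.

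The anchoring chain Col7a1 and the FACIT Col14a1 fell in footprints, while neither passed the test in RNA. Col7a1 (chromosome 9, 108953586 to 108984875) had RNA of 143.5 and 142.7 CPM in WT-shSCR, 169.9 and 193.2 in WT-shARF and 105.8 and 117.9 in ArfKO-shSCR. Its footprints were 160.7 and 142.3 CPM in WT-shSCR, 172.9 and 190.7 in WT-shARF and 53 and 47.7 in ArfKO-shSCR, so ArfKO-shSCR was 2.98-fold lower than WT-shSCR in footprints. The log2 fold change was -1.58 ± 0.15 (SE), adjusted p = 1.31e-09, in footprints and -0.36 ± 0.17 (SE), adjusted p = 0.22, in RNA. Col14a1 (chromosome 15, 55307750 to 55520803), a chain that binds the fibril surface, had RNA of 51.1 and 47.4 CPM in WT-shSCR, 62 and 54.4 in WT-shARF and 39.5 and 72.5 in ArfKO-shSCR, in which the groups overlapped. Its footprints were 37.8 and 48.2 CPM in WT-shSCR, 47 and 33.6 in WT-shARF and 9.64 and 14.3 in ArfKO-shSCR, and the ArfKO-shSCR libraries lay below the rest. Its log2 fold change was -1.82 ± 0.27 (SE), adjusted p = 6.84e-06, in footprints and 0.17 ± 0.26 (SE), adjusted p = 0.758, in RNA.

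These 2 were the only members called in TE between ArfKO-shSCR and WT-shSCR, where 36 members were tested and 0.194% of 11314 genes were called in either direction. The TE log2 fold change was -1.25 ± 0.22 (SE), adjusted p = 0.0118, for Col7a1 and -2.03 ± 0.39 (SE), adjusted p = 0.0308, for Col14a1 (edgeR, interaction of assay and group). The paired TE values were 0.19 and 0.04 in WT-shSCR and -0.97 and -1.32 in ArfKO-shSCR for Col7a1, and -0.41 and 0.07 and -2.01 and -2.35 for Col14a1. Col7a1 lost the call without WT-shSCR footprint replicate 1 (adjusted p = 0.107) or ArfKO-shSCR footprint replicate 2 (adjusted p = 0.113). Col14a1 lost it in 5 of 8 such refits, with an adjusted p of up to 0.139, among them the refit without ArfKO-shSCR RNA replicate 2 (adjusted p = 0.095). The plot of 4 chains sets these beside Col6a3 and Col3a1, whose RNA and footprints moved alike.

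**Figure D4:**
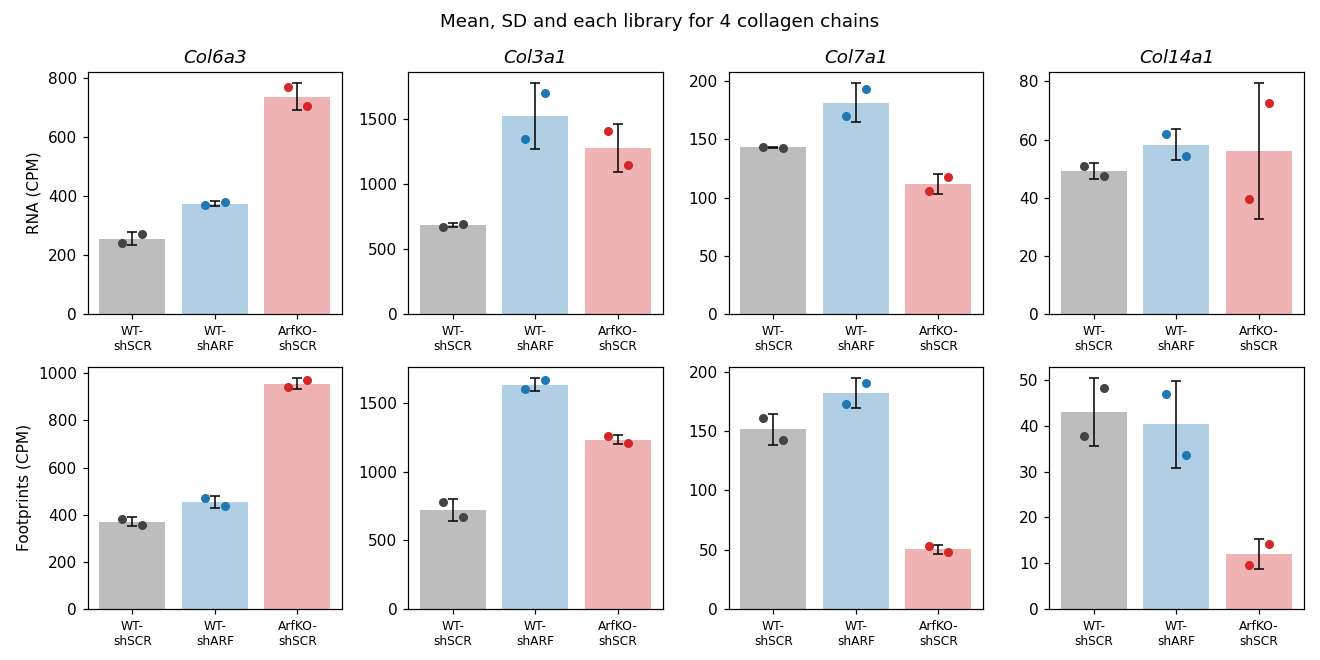
RNA (top) and footprint (bottom) levels in CPM of Col6a3, Col3a1, Col7a1 and Col14a1 by group; bars are means of 2 libraries, error bars are SD, and points are libraries. Col6a3 rises in ArfKO-shSCR in both rows, whereas Col7a1 and Col14a1 fall in the footprint row, to 50.4 and 12 CPM, against 111.9 and 56 CPM of RNA.

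The remaining FACIT and multiplexin chains moved less. Col12a1, the most read FACIT, had RNA of 1343.4 and 1488.7 CPM in WT-shSCR, 1450.7 and 1545.2 in WT-shARF and 1414 and 1380.1 in ArfKO-shSCR and footprints of 2538.1 and 2330.7 CPM in WT-shSCR, 2182.1 and 2068.7 in WT-shARF and 2045.2 and 2407.6 in ArfKO-shSCR, and it did not pass the test in ArfKO-shSCR. Col16a1 had RNA of 96.9 and 82.4 CPM in WT-shSCR, 78.7 and 111 in WT-shARF and 70.3 and 66.5 in ArfKO-shSCR and footprints of 122.9 and 157.7 CPM in WT-shSCR, 121.9 and 130.4 in WT-shARF and 97 and 86.1 in ArfKO-shSCR, which fell (log2 fold change -0.60 ± 0.15 (SE), adjusted p = 0.00305). Col18a1, a multiplexin of basement membranes and the source of endostatin, had RNA of 45.8 and 33.1 CPM in WT-shSCR, 32.9 and 40.1 in WT-shARF and 35.9 and 33.7 in ArfKO-shSCR and footprints of 72.3 and 55.7 CPM in WT-shSCR, 26 and 45.3 in WT-shARF and 45.9 and 39.5 in ArfKO-shSCR, with a footprint log2 fold change of -0.58 ± 0.19 (SE), adjusted p = 0.0278. In both chains the change in footprints was the one that passed the test.

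The second comparison set the libraries labelled WT-shARF against WT-shSCR, and it shares the WT-shSCR libraries with the first. Col1a1, Col3a1, Col11a1 and Col6a3 rose in both assays, and Col2a1 fell in both. In RNA 4 of 32 members were higher and 2 lower, against 3.11% and 4.17% of 10503 genes. In footprints 7 of 28 were higher and 5 lower, against 5.63% and 5.5% of 10307 genes. The member median was 0.22 in RNA and 0.19 in footprints, and that of all genes was -0.001 and -0.003. Without WT-shARF replicate 1 or 2 of an assay, all 6 RNA calls and all 12 footprint calls kept their direction. Fewer passed the threshold in these refits, among members and over all genes alike.

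Among the fibrillar chains called in both assays, Col3a1 had the largest log2 fold change, 1.15 ± 0.13 (SE), adjusted p = 5.74e-07, in RNA and 1.18 ± 0.08 (SE), adjusted p = 1.53e-13, in footprints. Col1a1 rose by 0.45 ± 0.13 (SE), adjusted p = 0.0258, in RNA and 0.48 ± 0.04 (SE), adjusted p = 2.1e-10, in footprints. Its partner Col1a2 did not pass the test, at 0.14 and 0.11. Col11a1 rose by 0.65 ± 0.14 (SE), adjusted p = 0.00241, in RNA and 0.36 ± 0.08 (SE), adjusted p = 0.00247, in footprints, and Col5a3 rose in footprints (0.48 ± 0.14 (SE), adjusted p = 0.0175). Col2a1 fell in both assays, with log2 fold changes of -0.67 ± 0.15 (SE), adjusted p = 0.00475, in RNA and -0.85 ± 0.11 (SE), adjusted p = 6.6e-07, in footprints. WT-shARF and WT-shSCR did not overlap in any of these calls.

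Type VI and network chains were also called. Col6a3 rose by 0.55 ± 0.13 (SE), adjusted p = 0.00917, in RNA and 0.30 ± 0.09 (SE), adjusted p = 0.0288, in footprints, and Col6a1 rose in footprints (0.35 ± 0.10 (SE), adjusted p = 0.0238). Col8a2 rose in footprints (1.86 ± 0.57 (SE), adjusted p = 0.0302), where it passed the read filter only through the WT-shARF libraries, in which it is high. Col4a2 fell in footprints (-0.39 ± 0.07 (SE), adjusted p = 7.17e-05) while Col4a1 stood at -0.12 and was not called. Col10a1 (-1.13 ± 0.33 (SE), adjusted p = 0.0231), Col18a1 (-0.81 ± 0.23 (SE), adjusted p = 0.0152) and Col12a1 (-0.19 ± 0.06 (SE), adjusted p = 0.0368) fell in footprints. Col4a4 was called lower in RNA (-1.07 ± 0.33 (SE), adjusted p = 0.0448), but without WT-shSCR RNA replicate 1, the library with 170 reads, its log2 fold change was 0.19 and its adjusted p was 0.87. In TE edgeR called 0 of 35 members, where 0.0354% of 11289 genes were called. DESeq2 also called 0, 2 members had an unadjusted p under 0.05, and Col7a1 stood at -0.07 and Col14a1 at -0.31.

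**Figure D5:**
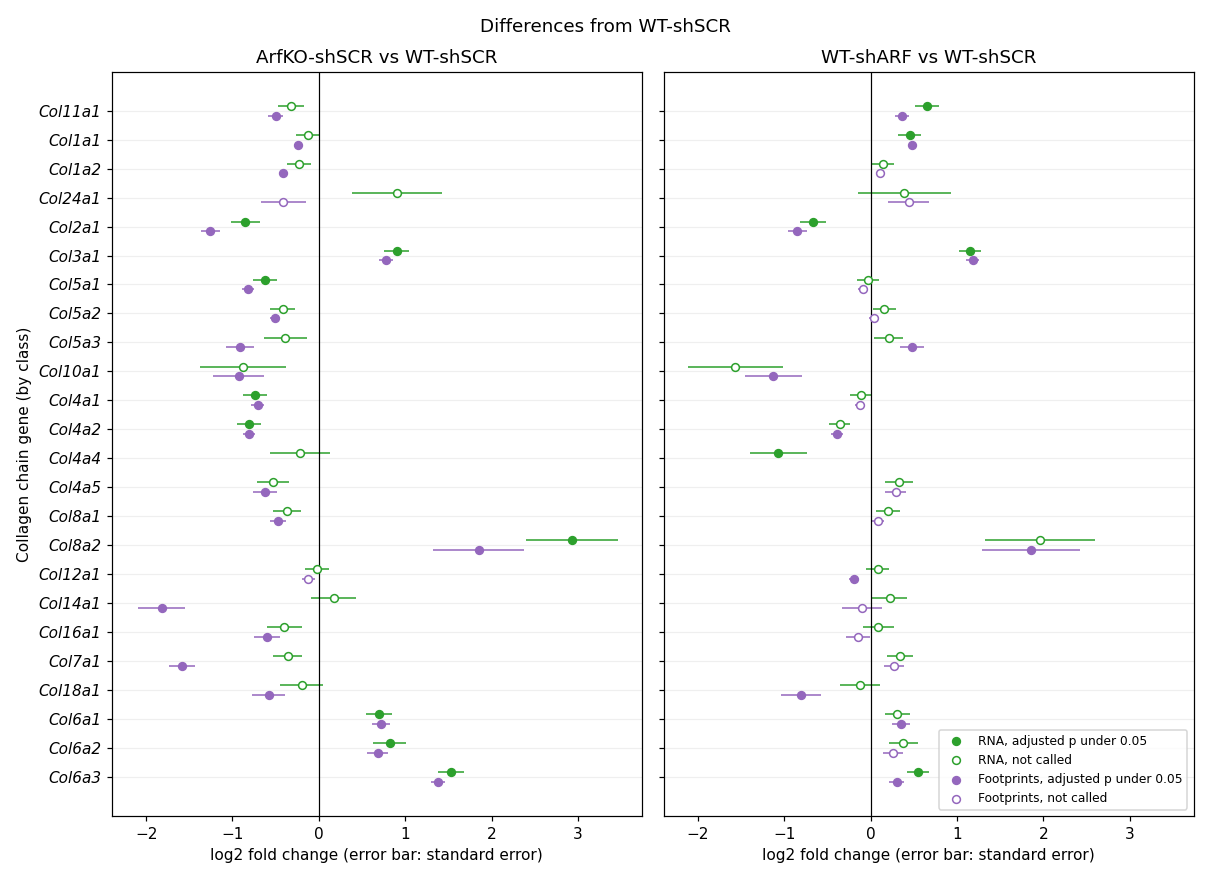
Log2 fold changes against WT-shSCR for the 24 collagen chains called in at least 1 of the 9 tests, ordered by class from fibrillar to others; error bars are standard errors, filled points have an adjusted p under 0.05 and open points do not. Col3a1 and Col6a3 are above 0 in both panels, and Col4a1, Col4a2, Col5a1 and Col5a2 lie below 0 in ArfKO-shSCR.

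ArfKO-shSCR was also compared directly with WT-shARF, which uses the same libraries again. In RNA 1 of 33 members was higher and 8 were lower, against 1.38% and 1.19% of 10632 genes. In footprints 3 of 29 were higher and 16 lower, against 3.93% and 4.3% of 10941 genes, with a member median of -0.42 against 0.003 for all genes. The 3 higher were Col6a1 (0.36 ± 0.09 (SE), adjusted p = 0.0164), Col6a2 (0.41 ± 0.10 (SE), adjusted p = 0.0109) and Col6a3 (1.08 ± 0.07 (SE), adjusted p = 1.24e-08). Of the 10 fibrillar chains tested, 9 were lower in footprints, among them Col1a1 (-0.73 ± 0.03 (SE), adjusted p = 1.2e-10), Col5a3 (-1.40 ± 0.13 (SE), adjusted p = 1.46e-06), Col24a1 (-0.85 ± 0.22 (SE), adjusted p = 0.0201) and Col3a1 (-0.40 ± 0.06 (SE), adjusted p = 0.000146). Col7a1 was lower in RNA (-0.71 ± 0.15 (SE), adjusted p = 0.0214) and in footprints (-1.85 ± 0.13 (SE), adjusted p = 2.85e-08). It was the 1 member of 36 called in TE (-1.14 ± 0.20 (SE), adjusted p = 0.0181), where 0.043% of 11632 genes were called. Without WT-shARF footprint replicate 1 or 2, nearly all footprint calls were lost over all genes, members and others alike, and all 19 members kept their direction. RNA calls also fell over all genes without WT-shARF RNA replicate 1 or 2, where nearly all of the 9 member calls were lost. The TE call of Col7a1 was lost in 4 of 8 refits, with an adjusted p of up to 0.222.

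The genes that make, modify and cross-link collagen chains were counted from a list of 35. In ArfKO-shSCR footprints, 1 of 31 tested was higher and 12 fell against WT-shSCR, where 9.57% of all genes were higher and 8.95% lower. In RNA 0 of 31 rose and 4 fell, against 3.94% and 3.99% of all genes. The largest footprint falls were in Fkbp14, a folding factor of the endoplasmic reticulum (-1.16 ± 0.24 SE), Bmp1, which removes the C-propeptide (-1.13 ± 0.11), and Loxl2, a cross-linking oxidase (-1.10 ± 0.08), on the log2 scale. Pcolce2, an enhancer of C-propeptide removal, was the 1 that rose (0.75 ± 0.25, adjusted p = 0.033 by edgeR). The median of the list was -0.22, against -0.001 for all genes. In WT-shARF footprints 4 of 31 rose and 6 fell (median 0.02), against 5.63% and 5.5% of all genes (median -0.003), led by Mia3, which loads procollagen into transport carriers (0.86 ± 0.16), Pcolce (0.62 ± 0.08) and Serpinh1, the collagen chaperone (0.33 ± 0.05), and at the other end by Bmp1 (-0.75 ± 0.10), Loxl2 (-0.49 ± 0.06) and Loxl3 (-0.43 ± 0.10). Bmp1 and Loxl2 were thus lower than in WT-shSCR in both groups, which share that control.

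Of 13 matrix proteins that bind collagen, 11 were tested in ArfKO-shSCR footprints, of which 3 rose and 5 fell (median log2 fold change -0.29), beside the 9.57% higher and 8.95% lower among all genes (median -0.001). The small proteoglycans Lum (3.50 ± 1.01 SE), Dcn (2.22 ± 0.54) and Aspn (1.15 ± 0.31) rose, and Fn1 (-0.97 ± 0.05), Thbs1 (-0.74 ± 0.04) and Sparc (-0.59 ± 0.06) fell most, as log2 fold changes. Lum had 1 and 1 footprint reads in WT-shSCR against 16 and 29 in ArfKO-shSCR, and it passed the read filter only through ArfKO-shSCR, where it is high. Dcn also started from few footprint reads, 4 and 11 in WT-shSCR against 76 and 56 in ArfKO-shSCR. It too passed the read filter only through ArfKO-shSCR, where it is high. In WT-shARF footprints 1 of 10 was higher, Postn (0.55 ± 0.07), and 3 were lower, Ogn (-1.23 ± 0.25), Bgn (-0.38 ± 0.06) and Fn1 (-0.33 ± 0.04), beside 5.63% and 5.5% of all genes. Of 10 collagen receptors 7 were tested in footprints, where ArfKO-shSCR had 0 higher and 4 lower (Itgb1, Itga11, Ddr1 and Mrc2, list median -0.48) and WT-shARF had 0 higher and 2 lower (Itga11 and Itgb1, list median -0.07), and the shares of all genes called are those given above for each comparison.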

How the data were processed

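RNA and ribosome footprints were sequenced from 3 groups of MEFs in 2 replicates each, and the authors deposited raw counts of reads per gene for each of the 12 libraries. Per the study's methods, adapters were clipped and barcodes split with the FASTX toolkit, molecular identifiers were removed with UMI-tools and barcodes with cutadapt, rRNA and ncRNA reads were removed with Bowtie2, and the rest was aligned to mm10 with TopHat and counted on coding sequence with HTSeq (versions not given in the sources used here). Removal of duplicates is not described, so intervals cover counting error only. Lines that name no gene were left out: reads without a unique place were 79.22% to 81.38% of RNA and 46.34% to 52.92% of footprint reads, and reads outside features 14.9% to 15.5% and 9.41% to 11.99%. Genes were filtered with filterByExpr, scaled by TMM and tested with edgeR 4.0.16 (quasi-likelihood test, Benjamini-Hochberg adjustment over all genes) on the 4 libraries of a comparison for RNA or footprints and on 8 for TE (interaction of assay and group). DESeq2 1.42.0, other scalings, filters, thresholds, blocks and the omission of each library were alternatives. Members and lists were chosen with earlier results of these data known. The named members are those called in any test and the 10 with the highest RNA per coding length, and of each list the 3 called genes that rose most and the 3 that fell most are named. The scripts were tested on simulated data.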

Additional observations from a re-analysis of the deposited data

How the results depend on the processing

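The 79 calls of single members were refitted under each alternative, 878 results in all, of which 704 kept their direction and their side of the threshold, 173 kept only their direction, and 1 reversed (Col4a4 RNA in WT-shARF against WT-shSCR, from -1.07 to 0.19 without WT-shSCR RNA replicate 1, against -1.63 as the lowest value with another library left out). In refits without 1 library, a group left with 1 library is assumed to vary like the other. Calls over all genes rose and fell across such refits as well. Over these refits, ArfKO-shSCR against WT-shSCR gave 2 to 5 members higher and 1 to 5 lower in RNA, 0 to 4 and 0 to 13 in footprints, and 1 to 2 lower in TE. WT-shARF against WT-shSCR gave 1 to 4 higher and 0 to 2 lower in RNA, and 3 to 7 and 2 to 7 in footprints. ArfKO-shSCR against WT-shARF gave 0 to 2 higher and 0 to 11 lower in RNA, 0 to 4 and 0 to 16 in footprints, and 0 to 3 lower in TE.

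At an adjusted p under 0.01, 0 members were called in TE in either ArfKO-shSCR comparison. Over all genes, 3 of 11314 were called there against WT-shSCR and 1 of 11632 against WT-shARF. In WT-shARF against WT-shSCR, 1 member was lower in RNA, beside 206 of 10503 genes. In footprints 3 were higher and 2 lower, beside 306 and 302 of 10307 genes. In ArfKO-shSCR against WT-shARF, 3 were lower in RNA and 1 higher in footprints, beside 38 of 10632 and 180 of 10941 genes. DESeq2 called 0 members lower in TE in ArfKO-shSCR against WT-shSCR, where it set no adjusted p for Col7a1 (unadjusted p = 1.5e-06) and Col14a1 (1.9e-05). Over all genes it called 13 of 11314 lower there. In WT-shARF against WT-shSCR it called 1 member lower in RNA and 3 lower in footprints, beside 195 of 10503 and 375 of 10307 genes. The RNA count of 2 lower in the latter comparison was 1 with TMM factors computed without the collagens and with all 3 groups in one fit. Over all genes these settings called 423 of 10503 and 280 of 11011 lower. Without a filter, 2 members were lower in TE in ArfKO-shSCR against WT-shARF, beside 51 of 18452 genes.

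Same-numbered libraries of different groups did not deviate together (correlations of -0.118 to 0.052), so the numbers do not pair them. With the replicate number as a block, 3 members rather than 8 were lower in RNA and 2 rather than 1 lower in TE in ArfKO-shSCR against WT-shARF, and 2 in TE with a block for cultures. Over all genes the replicate block called 81 of 10632 lower in RNA and 10 of 11632 in TE, and the block for cultures 57 in TE. With crossed numbers, an alternative chosen after seeing the data, the block gave 5 higher and 6 lower in RNA in ArfKO-shSCR against WT-shSCR and 3 higher and 12 lower against WT-shARF. Calls over all genes were not counted with crossed numbers, so these member counts are a description.

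Without the 10 other genes with the most reads, the mean collagen share was 2.27%, 2.75% and 1.98% in RNA and 4.72%, 5.48% and 3.73% in footprints for WT-shSCR, WT-shARF and ArfKO-shSCR, in the same order of groups. With the longest transcript as coding length, the WT-shSCR ratio was 0.718 for Col5a1 to Col5a2 in footprints and 2.05 and 1.49 for Col6a1 to Col6a2 in RNA and footprints. The median member TE in ArfKO-shSCR was 0.36 at 100 reads in every library and 0.42 to 0.45 without 1 replicate, and in WT-shSCR 0.59 to 0.68. Genes that reached about 10 reads in too few libraries were removed by the filter at this depth, while those with fewer reads in only 1 group could still be tested.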
